A study of Danio rerio with 6 samples.

Results

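Chemokine, interleukin and tumour necrosis factor (TNF) family genes were described in the livers of adult male zebrafish (Danio rerio) exposed to estrogenic compounds. Members were the genes whose name in both deposited tables began, in upper or lower case, with ccl, cxcl, ccr and a digit, cxcr, il and a digit, or tnf. Counted once per gene ID, 170 of 31953 genes met this rule, and no measured value entered it. Reads were present for 118 of them, and 73 had a deposited mean of at least 1 normalised read in either table; these 73 are described singly or by role, and a few well known members below that mean are named with their reads only. The 73 comprised 21 of 51 listed chemokine ligands, 5 of 18 chemokine receptors, 6 of 28 interleukin ligands, 18 of 33 interleukin receptors and subunits, 6 of 11 TNF superfamily ligands, 9 of 19 TNF receptor superfamily members, and 8 of 10 TNF-induced proteins and others. The members nearest the minimum were tnfsf12 with a mean of 1.01 on the inside and tnfrsf18 with 0.989 on the outside. A further 45 members had between 1 and 6 reads over all libraries, and 52 had none.

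Cytokines are small secreted or membrane-bound proteins by which immune and tissue cells signal to each other. Chemokines bind G protein-coupled receptors and direct the migration of leukocytes; interleukins and TNF superfamily ligands bind receptor complexes that act through JAK and STAT proteins, MyD88 or TRAF adaptors, and the transcription factor NF-κB. In the liver they are made by and act on resident macrophages, endothelial cells and hepatocytes, and the response of hepatocytes to interleukin 6 is the classical acute phase response. Teleost fish carry tandem copies of many chemokine genes, so that several zebrafish genes can correspond to 1 mammalian gene.

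Each of the 3 groups had 2 liver libraries. Fish were kept for 3 weeks with the ethanol vehicle (control), with 17β-estradiol at 1000 nM (E2, the principal estrogen of vertebrates), or with nonylphenol at 100 nM (NP, formed when alkylphenol surfactants break down, and able to bind estrogen receptors), the compounds being dissolved in ethanol too. Each group was 1 flow-through tank of 80 L with 40 fish, so an effect of the tank and of its treatment cannot be told apart. The compounds were given at different concentrations. The labels do not state whether a library was 1 fish or a pool, nor the strain or age, so p-values reflect spread among libraries alone, and that spread may be technical. All fish were males. In whole liver, fewer cells of a type and less RNA per cell cannot be told apart.

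The deposited tables hold the authors' comparisons and no values per library, but whole reads per library could be recovered from the deposited means for 18359 of 18593 genes with reads (98.7%), the 118 members with reads included. Normalised reads are these reads divided by the library's size factor. They cannot be tied to a named sample, so within a group 1 library is termed deeper and the other shallower. Size factors, relative to the smallest, were 14.2 and 9.14 in the controls, 5.92 and 1 with E2, and 8.07 and 7.83 with NP. The shallower E2 library held 18938 reads over the recovered genes, against 233524 to 511327 in the other 5, and 3 reads in it correspond to 18.1 normalised reads, against 1.28 to 3.06 elsewhere. Of the 12 hepatocyte markers all 12 were expressed, and the reads of 11 of them were not recovered.

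The control libraries did not resemble each other in these genes. Summed over the 73 members, the deeper control had 1988 normalised reads and the shallower one 443. The sums were 287 and 109 with E2 and 320 and 262 with NP, the deeper library of each group being given first. The sum was thus lower in all 4 treated libraries than in both controls, but the gap between the controls was wider than that between the shallower control and any treated library. In the shallower E2 library the sum of 109 was only 18 reads. As a share of reads over the recovered genes, the members took 0.915% of the deeper control, 0.215% of the shallower, and between 0.0950% and 0.128% of the treated libraries. A set of 5 chemokine ligands singled out after their values were seen, ccl19a.1, ccl34a.4, cxcl11.1, cxcl18b and cxcl20, gave 71.8% of the members' reads in the deeper control and 31.3% in the shallower. Without these 5 genes the sums were 560 and 304 in the controls, 225 and 109 with E2, and 234 and 204 with NP.

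The deeper control had the highest normalised reads of all 6 libraries for 43 of the 73 members, against 20.2% of the 12913 recovered genes with a mean of at least 1. The median difference between the deeper and the shallower control was 0.91 on the log2(normalised reads + 1) scale for the members and 0 for all genes, and 54 of 73 members (74.0%) against 48.8% of all genes were higher in the deeper control. Among the 45 members with at least 10 control reads, 15 had over 90% of them in the deeper control, as had 5.64% of such genes overall. They were ccl19a.1, ccl19a.2, ccl34a.3, ccl34a.4, ccl35.1, ccl38a.4, cxcl11.1, il1b, il34, il13ra1, il13ra2, il17rel, tnfb, tnfsf13b and IL4I1. A difference from control in these genes therefore rests on 1 library.

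**Figure D1:**
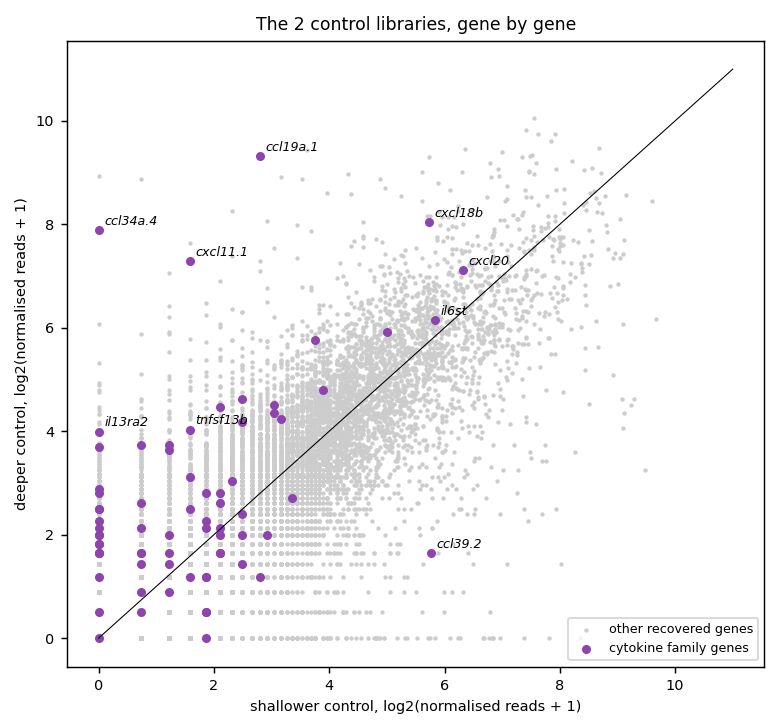
Normalised reads of each recovered gene in the shallower (horizontal axis) and the deeper (vertical axis) control library, both as log2(normalised reads + 1); purple points are the cytokine family genes, grey points the other recovered genes, and the line marks equal values. Most members lie above the line, with ccl19a.1, ccl34a.4 and cxcl11.1 far above it and ccl39.2 far below it.

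Against control, no member rose with either compound in the authors' deposited tables, and a few chemokine ligands fell. With E2, 2 of the 10 members that had an adjusted p fell, cxcl18b and cxcl20, where 3.67% of all 3241 genes with an adjusted p fell, 2.1% rose and 5.77% did either. With NP, 3 of 18 fell, ccl19a.1, cxcl18b and ccl19b, where 1.68% of 6799 genes fell, 1.26% rose and 2.94% did either. At an unadjusted deposited p under 0.05, 6 members were lower with E2 (4.89% of all genes with a mean of at least 1) and 9 with NP (3.29%), while 0 were higher with either (2.56% and 2.26%). The other members either did not pass the test or had no adjusted p and so could not pass it, since only 10 of the 73 had one with E2 and 18 with NP. Fitted to the recovered reads, limma-voom called 0 members in either comparison, as it called 0% of the 10695 genes fitted; at an unadjusted p under 0.05 it had 6 of 58 members with E2 (13.9% of all genes) and 8 with NP (6.81%). The smallest adjusted p that limma-voom gave a member was 0.214 with E2, for cxcl20, and 0.171 with NP, for cxcl18b.

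The direction of the deposited fold changes was negative for 62 of 73 members with E2 and 64 with NP, where 65.5% and 53.3% of all genes were negative. The members' median log2 fold change was -1.38 with E2 and -0.83 with NP, and that of all genes -0.57 and -0.07. In recovered reads, both treated libraries lay below both controls for 34 members with E2 (36.1% of all genes) and 27 with NP (21.8%). They lay above both for 1 with E2, tnfrsf19 (5.54%), and for 4 with NP, tnfrsf19, cxcl14, il15 and il17rd (19.4%). The control chosen changed these counts. Taken against the deeper control alone, the mean of the treated libraries was lower for 60 members and higher for 12 with E2. With NP it was lower for 61 and higher for 11. Against the shallower control alone it was lower for 42 and higher for 21 with E2, and lower for 42 and higher for 26 with NP. Such counts were not made for all genes, for which only the medians that follow are given. The members' median difference from the shallower control, on the log2(normalised reads + 1) scale, was -0.62 with E2, where that of all genes was -0.56, and -0.32 with NP, where that of all genes was 0. From the deeper control the members' median difference on this scale was -1.64 with E2 and -1.19 with NP. That of all genes was -0.51 and -0.008. Both comparisons share the same 2 controls, so their values are given side by side and not as support for each other.

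**Figure D2:**
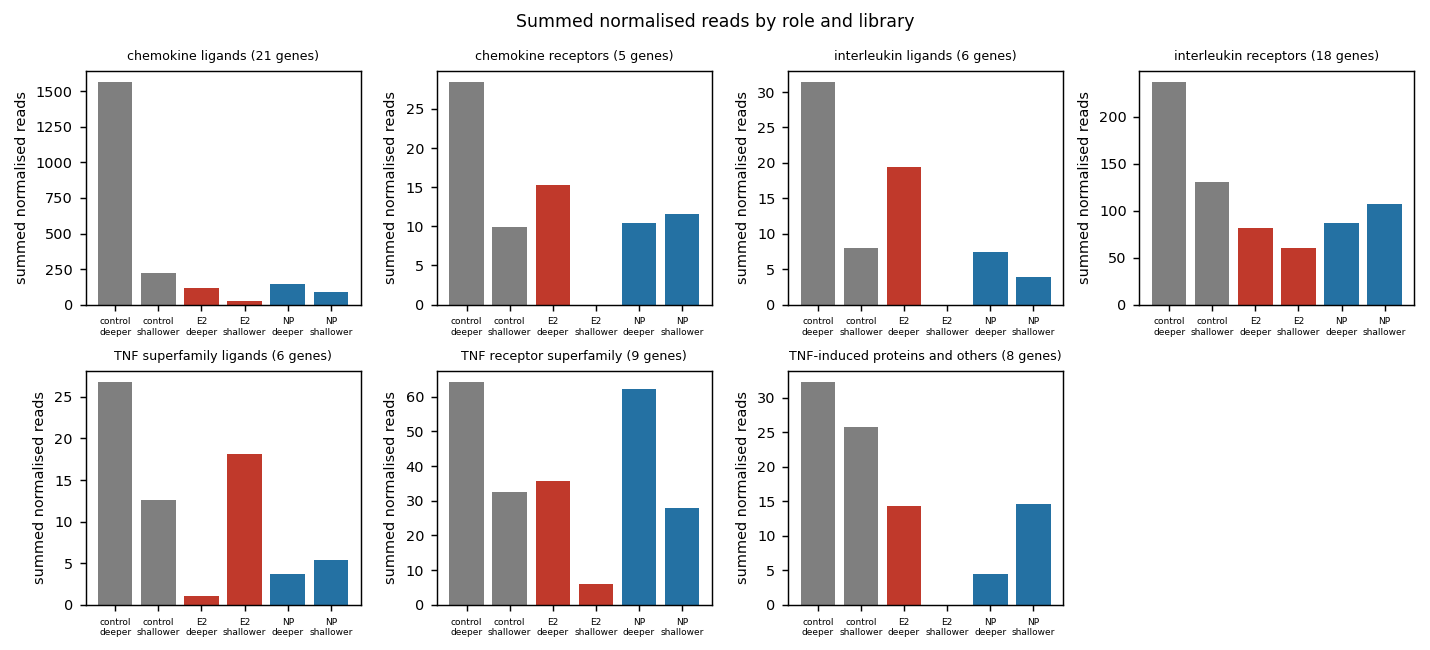
Summed normalised reads (vertical axis, linear, from 0) of the members with a mean of at least 1, by role and library; grey bars are the control, red the E2 and blue the NP libraries, deeper before shallower. Chemokine ligands summed to 1568 in the deeper control and 224 in the shallower, against 24.2 (4 reads) to 145 in the treated libraries. The TNF receptor sum of the deeper NP library, 62.1, was near that of the deeper control, 64.2. Of that 62.1, however, 45.7 came from 1 gene, TNFRSF14 (4 of 8). The TNF receptor sums of the shallower libraries were 27.8 with NP and 32.4 in the control.

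Chemokine ligands held every fall that passed the test; 7 of the 21 ligands had an adjusted p with E2 and 9 with NP. Of the 21 ligands, 18 had a negative deposited log2 fold change with E2 and 19 with NP, with medians of -1.90 and -1.53. Their summed normalised reads were 1568 and 224 in the controls, 119 and 24.2 with E2, and 145 and 91.8 with NP, the 24.2 being 4 reads.

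The ligand cxcl18b, a fish CXC chemokine that attracts neutrophils in zebrafish, was the 1 gene of the family that fell with both compounds. It had 263 and 52.2 normalised reads in the controls, 8.17 and 0 with E2, and 2.99 and 3.08 with NP. All 4 treated libraries lay below both controls. The authors' deposited tables gave log2 fold changes of -4.30 ± 1.32 (SE) with E2 (adjusted p = 0.0265) and -5.08 ± 0.88 with NP (adjusted p = 1.2e-06). In limma-voom the fold changes were -4.08 and -5.16, with adjusted p = 0.231 and 0.171, and without the deeper control -2.90 and -3.94.

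The ligand cxcl20, another fish CXC chemokine, fell with E2 and did not pass the test with NP. Its normalised reads were 138 and 78.6 in the controls, 9.19 and 0 with E2, and 81.6 and 51.7 with NP. The E2 libraries lay below both controls, and the NP libraries overlapped them. In the authors' deposited tables its log2 fold change was -3.74 ± 1.24 with E2 (adjusted p = 0.0469) and -0.66 ± 0.70 with NP (adjusted p = 0.999). The difference between the compounds, at their different concentrations, was 3.06 on the log2 scale in limma-voom (adjusted p = 0.17), and did not pass the test after adjustment. Without the deeper control its limma-voom change with E2 was -3.37, against -3.75 with all libraries.

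The pair ccl19a.1 and ccl19b are co-orthologues of mammalian CCL19, which guides T cells and dendritic cells through CCR7. For ccl19a.1, 1499 and 9 reads were recovered in the controls, 28 and 0 with E2, and 2 and 2 with NP, or 637 and 5.95, 28.6 and 0, and 1.5 and 1.54 normalised reads. The deeper control was 107-fold above the shallower, which lay within the range of the E2 libraries and above both NP libraries. The authors' deposited tables gave a log2 fold change of -6.23 ± 1.08 with NP (adjusted p = 1.39e-06) and -3.59 ± 1.54 with E2 (adjusted p = 0.148). The limma-voom change with NP was -5.22 (adjusted p = 0.713) with all libraries and -1.72 without the deeper control, and that with E2 turned from -2.33 to 0.95.

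In contrast to ccl19a.1, ccl19b had reads in both controls, 42 and 12, and in 0 of the 4 treated libraries. Taking 3 reads over the treated group as the limit and the control reads as exact, ccl19b was at least 5.33-fold lower with E2 and at least 12.3-fold lower with NP. Set against the shallower control alone, a comparison added after seeing the data, these limits were 3.03-fold and 6.96-fold. The other members given such limits below had 3 reads or fewer in the shallower control, apart from tnfaip8l1. For them no limit could be set against that control alone, and their limits take the controls as a group. The authors' deposited table for NP gave a log2 fold change of -4.51 ± 1.31 (adjusted p = 0.0251). For E2 the authors' deposited table gave -4.36 ± 1.82 with p = 0.0168, and no adjusted p, since the mean was under the 12.6 from which it adjusts. In limma-voom its change with NP was -5.02 (adjusted p = 0.497), and -4.44 without the deeper control. The neighbouring copy ccl19a.2 had 15 reads, all in the deeper control.

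A further ligand, cxcl11.1, which attracts macrophages through Cxcr3.2 in zebrafish, had 365 and 3 reads in the controls, 4 and 0 with E2, and 0 and 0 with NP. Nearly all of its reads were those of the deeper control, and the NP group was at least 83.5-fold lower than the controls as a group. In the authors' deposited tables it did not pass the test with E2 (log2 fold change -3.93 ± 1.57, adjusted p = 0.114) or NP (-2.71 ± 1.44, adjusted p = 0.600). The deposited change with NP was the smaller of these, although NP had 0 reads, and it is far smaller than the limit of 83.5-fold. The reason for this difference was not tested. The members ccl34a.4 and ccl39.2, which the rule for genes named in the text did not select and which were picked after their values were seen, showed the same unevenness between libraries of 1 group. ccl34a.4 had 555 reads in the deeper control and 0 in the shallower, 12 and 0 with E2, and 1 and 2 with NP, with adjusted p of 0.296 and 0.910 in the authors' deposited tables. ccl39.2 had 5 and 81 reads in the controls, 0 and 4 with E2, and 44 and 0 with NP, and is the opposite case, being high in the shallower control.

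Of the other named ligands, cxcl12a, which binds Cxcr4 and guides migrating cells, had 56 and 7 reads in the controls, 11 and 0 with E2, and 5 and 25 with NP. The groups overlapped, and its deposited log2 fold changes in the authors' tables were -0.91 ± 1.46 and -0.28 ± 1.02. Its paralogue cxcl12b had 1 read in all, in the shallower NP library. The gene named il8l1 in the tables, currently cxcl8b.1, a zebrafish copy of the neutrophil attractant interleukin 8, had 7 and 0 reads in the controls, 3 and 0 with E2, and 0 and 1 with NP. Another copy, cxcl8a, carries a clone name in the tables and is not a member by the rule. One ligand chosen after its values were seen, ccl25b, whose mammalian counterpart binds CCR9, had 126 and 19 reads in the controls, 32 and 0 with E2, and 16 and 10 with NP. It did not pass the test in the authors' deposited tables (adjusted p = 0.836 with E2 and 0.686 with NP).

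Several of these ligands are neighbours. With no coding gene between them in the RefSeq annotation of assembly GRCz12tu stand ccl19a.1 and ccl19a.2, and ccl34a.3 and ccl34a.4. So do CXCL11 (6 of 7), CXCL11 (7 of 7), cxcl11.1 and cxcl20, and also ccl39.1, ccl39.2 and ccl35.1. Neighbours need not be copies of each other, and the likeness of their sequences was not examined. How reads shared by near-identical copies were counted is not given in the sources used here. The split of reads between any such copies is therefore uncertain.

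**Figure D3:**
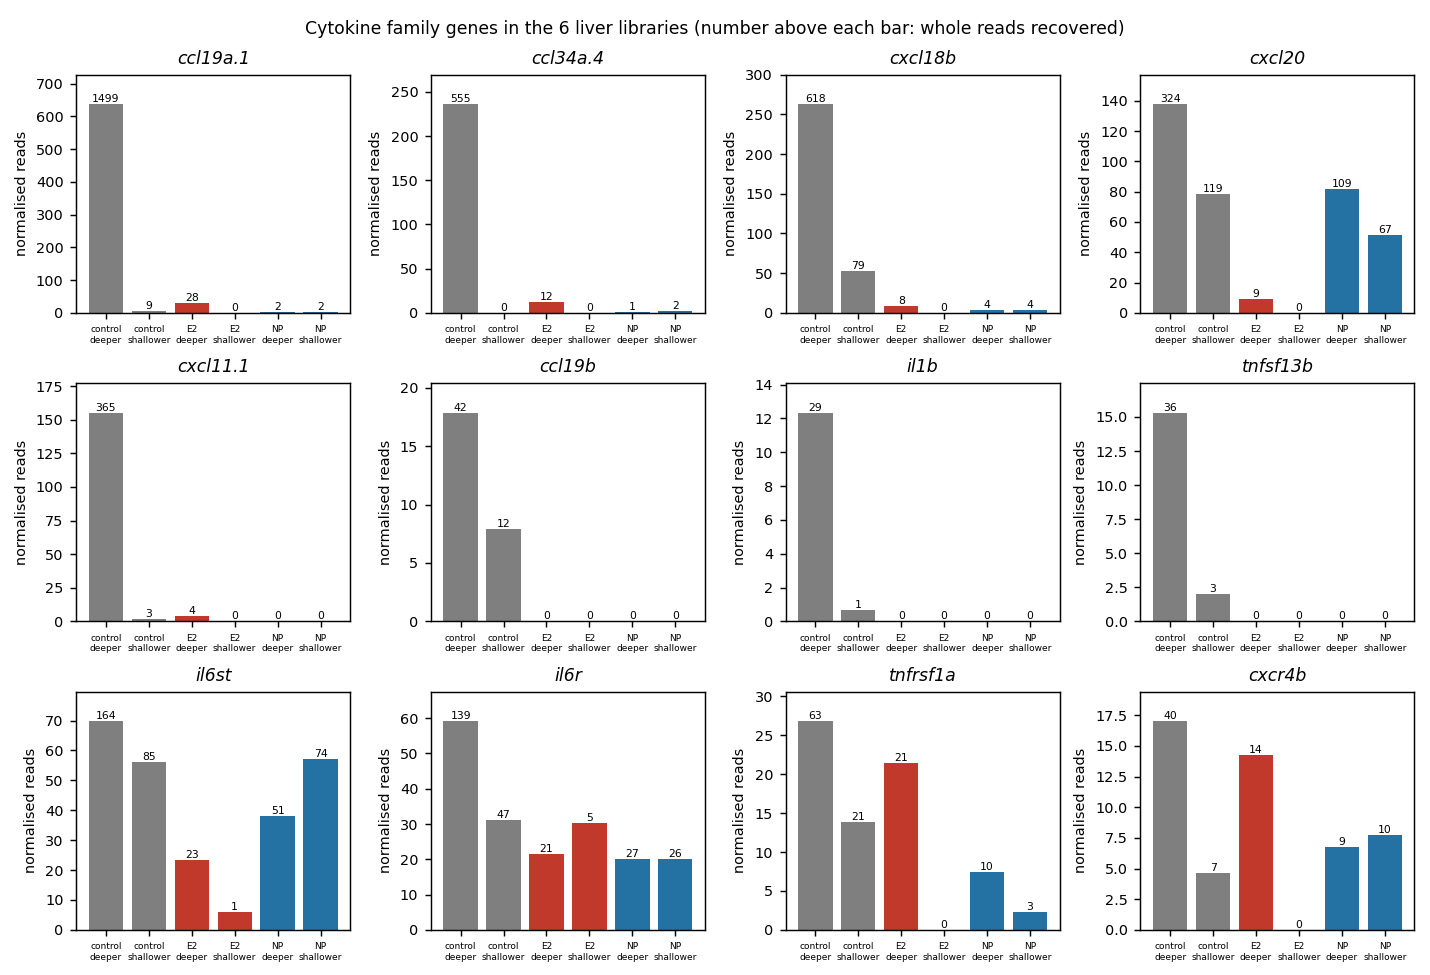
Normalised reads (vertical axis, linear, own scale in each panel) of 12 members in the 6 libraries; grey is control, red E2 and blue NP, deeper before shallower, and the number above each bar is the whole reads recovered. The cxcl18b and ccl19b bars are above the treated ones in both controls, while ccl19a.1, ccl34a.4, cxcl11.1, il1b and tnfsf13b stand in the deeper control, and il6st and il6r have reads in all 6 libraries.

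Chemokine receptors had few reads. The receptor of cxcl12a, cxcr4b, had 40 and 7 reads in the controls, 14 and 0 with E2, and 9 and 10 with NP; as 17.0 and 4.63, 14.3 and 0, and 6.74 and 7.71 normalised reads the 3 groups overlapped. The authors' deposited log2 fold changes of cxcr4b were -0.31 ± 1.45 and -0.51 ± 1.01. ccr9a, whose mammalian counterpart is the CCL25 receptor of gut-homing lymphocytes, had 9 and 4 reads in the controls, 0 in both E2 libraries, and 2 and 3 with NP. cxcr3.2, the receptor of cxcl11.1, had 8 reads in the deeper control, 0 in the shallower control and in E2, and 1 in each NP library. cxcr4a had 1 read in all, and ccr7, the receptor of CCL19 in mammals, had none in any library. Of the 5 chemokine receptors with a mean of at least 1, 0 had an adjusted p with E2 and 1, cxcr4b, had one with NP and did not pass. The other receptors had no adjusted p. The median deposited log2 fold change of the 5 receptors was -1.60 with E2 and -0.55 with NP, and both treated libraries lay below both controls for 2 of 5 in each comparison, where 36.1% of all genes did with E2 and 21.8% with NP.

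Interleukin ligands were near the limit of detection. None of the 6 had an adjusted p with either compound in the authors' deposited tables, so none could pass the test. The inflammatory cytokine il1b had 29 and 1 reads in the controls and 0 in all 4 treated libraries. It was at least 2.96-fold lower with E2 and at least 6.81-fold lower with NP, and 29 of its 30 reads came from the deeper control. The authors' deposited tables gave a log2 fold change of -3.35 ± 1.93 (p = 0.0832) with E2 and -3.41 ± 1.40 (p = 0.015) with NP, both with no adjusted p. il34, a ligand of the macrophage receptor Csf1r, had 27 and 2 reads in the controls, 4 and 0 with E2, and 5 and 0 with NP, and its groups overlapped.

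Among the remaining interleukins, il11a, of the interleukin 6 family, had 8 and 1 reads in the controls and 1 read over the treated libraries. il15, which sustains natural killer and memory T cells, had 4 and 2 reads in the controls, 1 and 0 with E2, and 3 and 4 with NP. il6, the inducer of the acute phase response, had 4 reads in the deeper control and 2 in the deeper E2 library, and il10, an anti-inflammatory cytokine, had 2 reads in the deeper control. At these depths no difference in il6, il10, il11a or il15 was detectable. The subunit gene IL12B (2 of 4), chosen after its values were seen, ran the other way in 1 library: it had 12 reads in the deeper E2 library and 0 or 1 in each of the other 5, with a deposited log2 fold change of 2.85 ± 1.71 (p = 0.0965) in the authors' E2 table.

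Interleukin receptors included the members with reads in nearly every library. il6st encodes gp130, the signalling subunit shared by receptors of the interleukin 6 family. Its normalised reads were 69.7 and 56.2 in the controls, 23.5 and 6.04 with E2, and 38.2 and 57.1 with NP; the E2 libraries lay below both controls and the NP libraries overlapped them. The authors' deposited log2 fold change of il6st was -1.78 ± 1.15 with E2 (adjusted p = 0.430) and -0.38 ± 0.71 with NP (adjusted p = 0.999). The ligand-binding subunit il6r had 139 and 47 reads in the controls, 21 and 5 with E2, and 27 and 26 with NP. After normalisation all 4 treated libraries lay below both controls, that nearest to them, the shallower E2 library with 30.2 normalised reads, by less than 1 read's worth from the shallower control with 31.1. Its deposited log2 fold changes in the authors' tables were -0.77 ± 1.1 (adjusted p = 0.779) and -1.08 ± 0.77 (adjusted p = 0.900). Neither gene passed the test with either compound.

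The interleukin 13 receptor genes differed in which libraries held their reads. il13ra1, a subunit of the receptor for interleukins 4 and 13, had 50 and 5 reads in the controls, 16 and 0 with E2, and 0 and 2 with NP. Its NP libraries lay below both controls, its E2 libraries did not, and the authors' deposited table for NP gave -2.98 ± 1.22 (p = 0.0145, adjusted p = 0.269). il13ra2, a decoy receptor in mammals, had 35 reads in the deeper control and 0 in the other 5 libraries, and was at least 3.46-fold lower with E2 and at least 7.94-fold lower with NP. il17rel, an interleukin 17 receptor-like gene, had 28 reads in the deeper control alone, and was at least 2.76-fold and at least 6.36-fold lower. With NP their deposited log2 fold changes in the authors' table were -3.39 ± 1.41 (p = 0.0159) and -3.11 ± 1.42 (p = 0.0286), with no adjusted p; the shallower control had 0 reads of both genes, as the treated libraries did.

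Also among the receptors, il12rb2l, related to a subunit of the interleukin 12 receptor, had 51 and 11 reads in the controls, 4 and 0 with E2, and 14 and 15 with NP, the E2 libraries lying below both controls. il2rga, the common gamma chain of several interleukin receptors, had 1 read in all. Over the 18 interleukin receptors the median deposited log2 fold change was -1.24 with E2 and -0.88 with NP, and 16 and 17 were negative.

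**Figure D4:**
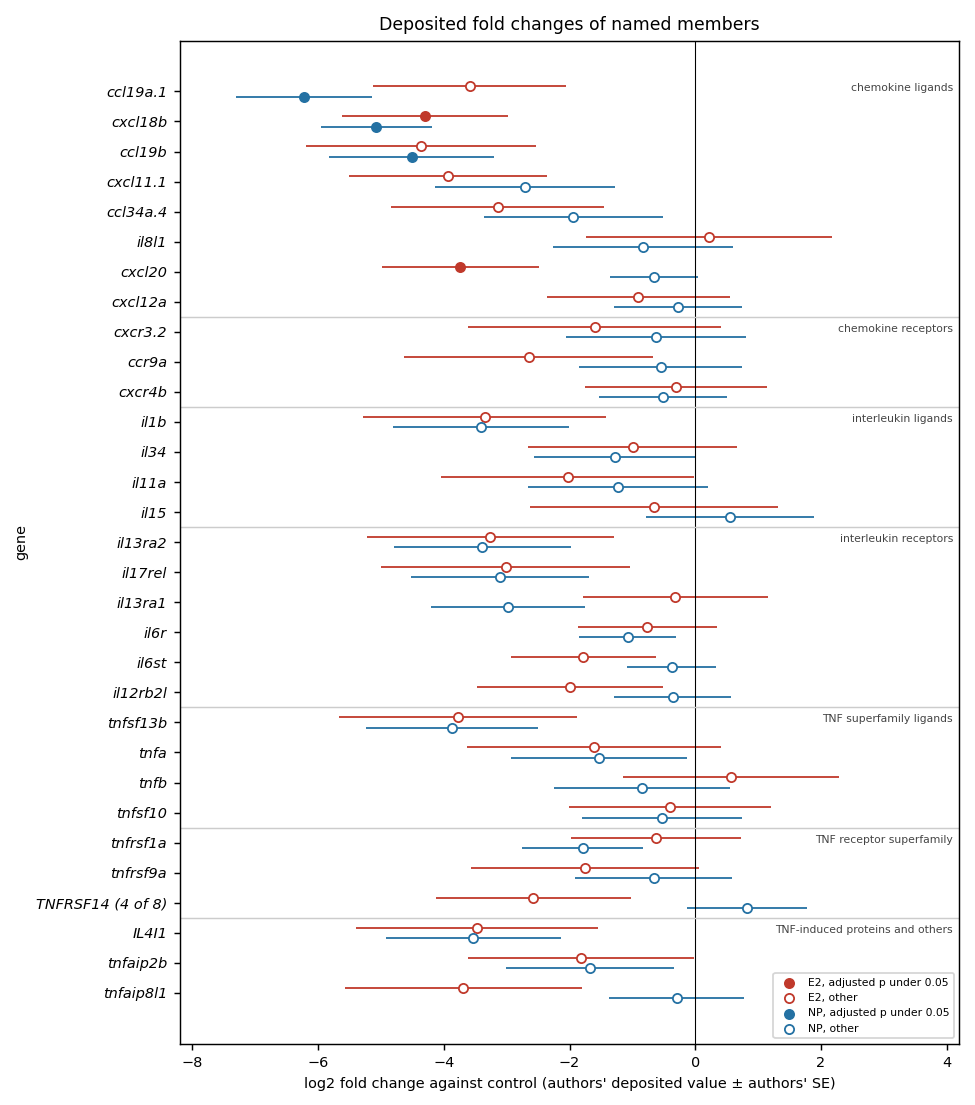
Deposited log2 fold change against control (horizontal axis) of the named members with its standard error (line), by role; red is E2 and blue NP, and filled circles passed an adjusted p under 0.05 in the authors' deposited tables. The filled circles are all chemokine ligands, and most open circles lie left of 0 and did not pass.

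TNF superfamily ligands were led by tnfsf13b, which encodes the B cell survival factor BAFF. It had 36 and 3 reads in the controls and 0 in all 4 treated libraries. Against the controls as a group, tnfsf13b was at least 3.85-fold lower with E2 and at least 8.85-fold lower with NP. These limits rest on the deeper control, and none could be set against the shallower control alone. The authors' deposited tables gave tnfsf13b -3.77 ± 1.89 with E2 (p = 0.0458, no adjusted p) and -3.87 ± 1.37 with NP (p = 0.00465, adjusted p = 0.121). It therefore did not pass the test with NP and was not adjusted with E2. Of the zebrafish TNF genes, tnfa had 5 and 1 reads in the controls and 0 in the treated libraries. Its limit, at least 1.36-fold lower with NP, takes these few control reads as exact, and the p for NP in the authors' deposited table was 0.272. The other, tnfb, had 12 and 1 reads in the controls, 0 and 2 with E2, and 3 and 0 with NP. tnfsf10, a homologue of the death ligand TRAIL, had 7 reads in each control, 1 in each E2 library, and 1 and 5 with NP. For tnfb and tnfsf10 the groups overlapped. In the authors' deposited tables, tnfsf13b with NP was the 1 case of an adjusted p among the 6 ligands.

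In the TNF receptor superfamily, tnfrsf1a, the homologue of the main TNF receptor, had 26.8 and 13.9 normalised reads in the controls, 21.4 and 0 with E2, and 7.49 and 2.31 with NP. The NP libraries lay below both controls and the E2 libraries overlapped them. The deposited log2 fold changes of tnfrsf1a in the authors' tables were -0.63 ± 1.35 (adjusted p = 0.867) and -1.79 ± 0.96 (adjusted p = 0.613). TNFRSF14 (4 of 8), currently zgc:153631, had 46 and 11 reads in the controls, 2 and 0 with E2, and 61 and 8 with NP, so that E2 was below both controls and NP overlapped them. tnfrsf9a, whose mammalian counterpart 4-1BB costimulates T cells, had 12 and 5 reads in the controls, 1 and 0 with E2, and 2 and 4 with NP. The median deposited log2 fold change of the 9 receptors was -1.13 with E2 and -0.11 with NP, and 1 of them had an adjusted p with E2 and 2 with NP.

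Of the 73 members, 11 had a positive deposited log2 fold change with E2 and 9 with NP. Among them was the TNF receptor tnfrsf19, named here after its values were seen, which had 1.28 and 0 normalised reads in the controls, 5.10 and 6.04 with E2, and 1.5 and 6.17 with NP, and was the 1 member above both controls in all 4 treated libraries. The treated values are 1 to 8 reads a library, that of the shallower E2 library being 1 read. How many of all genes lay above both controls in all 4 was not counted. The deposited changes of 2.31 ± 1.72 (p = 0.179) and 1.59 ± 1.37 (p = 0.247) for tnfrsf19 in the authors' tables have no adjusted p. The chemokine gene cxcl14, chosen likewise, had 1 and 0 reads in the controls, 2 and 0 with E2, and 7 and 3 with NP, with p = 0.0954 for NP in the authors' deposited table. The largest positive change of the 73 with E2 was that of the chemokine ligand ccl34b.1, also named after its values were seen. It had 0 and 0 reads in the controls, 6 and 0 with E2, and 1 and 0 with NP. Its log2 fold change in the authors' deposited E2 table was 3.50 (p = 0.0801), with no adjusted p. With E2 this change rests on the deeper E2 library alone.

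The 8 TNF-induced proteins and others had median deposited log2 fold changes of -1.60 with E2 and -1.29 with NP, where the medians of all genes were -0.57 and -0.07. Of the 8, 0 had an adjusted p with E2 and 1, tnfaip8l1, had one with NP and did not pass. The others had no adjusted p. tnfaip8l1, of a family linked to cell death and lipid signalling, had 13 and 14 reads in the controls, 0 in both E2 libraries, and 4 and 11 with NP. It was at least 2.67-fold lower with E2, or 3.53-fold against the shallower control alone, where the authors' deposited table gave -3.69 ± 1.88 (p = 0.0503); with NP the groups overlapped (-0.30, adjusted p = 0.999). Here the controls held nearly the same number of reads. IL4I1, a secreted amino acid oxidase, had 29 and 2 reads in the controls and 0 in the treated libraries. Against the controls as a group, IL4I1 was at least 3.06-fold lower with E2 and at least 7.04-fold lower with NP. These limits rest on the deeper control, and none could be set against the shallower control alone. The deposited p values of IL4I1 in the authors' tables were 0.0702 and 0.011. tnfaip2b had 10 and 7 reads in the controls, 1 and 0 with E2, and 0 and 2 with NP, and tnfaip3, the NF-κB inhibitor A20, had 3 and 1 in the controls and 0 in the treated libraries.

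In all, 12 of the 73 members had reads in a control and 0 in all 4 treated libraries, as had 2.40% of all genes. They were ccl19a.2, ccl19b, ccl34a.3, CXCL11 (6 of 7), il1b, il13ra2, il17rel, tnfa, tnfsf12, tnfsf13b, tnfaip8l3 and IL4I1. Each reached the mean of 1 through its control reads alone, so the count is a description and no test. The reverse, 0 reads in both controls, was seen for 1 of the 73 members, ccl34b.1. Of the 12, ccl19a.2, ccl34a.3, il1b, il13ra2, il17rel, tnfsf13b and IL4I1 had over 90% of their control reads in the deeper control. A gene with 0 reads says only that it was not detected at this depth: 65 of the 73 members were at 0 in the shallower E2 library, against 74.5% of all genes, and 2 in the deeper control, against 8.04%. The shallower control had 19 at 0, against 8.29% of all genes, and the deeper E2 library 32, against 22.8%. The NP libraries had 24 and 30, against 13.3% and 11.6%.

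Between the compounds, 0 of 58 members were called by limma-voom at an adjusted p under 0.05, as were 0% of all genes, and the smallest adjusted p was 0.17. At an unadjusted p under 0.05 there were 6 members, where 16.6% of all genes were. On the log2 scale, cxcl20 was higher with NP (3.06), while IL12B (2 of 4) (-3.83), il13ra1 (-3.73), il21r.1 (-3.30), tnfaip1 (-2.81) and IL17RC (-2.80) were lower with NP. Since the concentrations differ and 1 of 2 E2 libraries is shallow, these 6 are listed as values and not as differences that passed a test.

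Genes that act downstream of these receptors were taken as a list of 85 symbols, of which 67 were found with a mean of at least 1. With E2, 4 of the 21 that had an adjusted p fell and 1 rose in the authors' deposited table, where 3.67% of all genes fell and 2.1% rose. With NP 5 of 41 fell and 0 rose, where 1.68% and 1.26% of all genes did. The list's median deposited log2 fold change was -1.02 with E2 and -0.53 with NP, and that of all genes -0.57 and -0.07. Several of the genes that fell are themselves induced by cytokines and restrain their signals. The NF-κB inhibitor nfkbiaa had 260 and 44 reads in the controls, 1 and 0 with E2, and 1 and 5 with NP, below both controls in all 4, and the authors' deposited tables gave log2 fold changes of -5.20 ± 1.49 with E2 (adjusted p = 0.0173) and -4.31 ± 0.94 with NP (adjusted p = 4.24e-04). Its paralogue nfkbiab fell with E2 (-3.77 ± 1.23, adjusted p = 0.041, authors' deposited table), from 258 and 168 reads in the controls to 9 and 0, and had 81 and 64 with NP.

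The JAK inhibitor socs1a and the transcription factor stat1b followed the deeper control, as ccl19a.1 and cxcl11.1 did. socs1a had 208 and 4 reads in the controls, 0 and 0 with E2, and 0 and 1 with NP, and fell with both compounds in the authors' deposited tables (-5.46 ± 1.78, adjusted p = 0.041; -5.04 ± 1.18, adjusted p = 0.00153). stat1b had 157 and 5 reads in the controls and 0 in all 4 treated libraries, and fell with NP (-5.54 ± 1.26, adjusted p = 0.00101) but narrowly missed with E2 (adjusted p = 0.0543) in the authors' deposited tables. Without the deeper control, too few reads of these genes were left for a limma-voom fit.

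With NP the authors' deposited table also had socs3b, another inhibitor of JAK signalling, lower (-2.76 ± 0.84, adjusted p = 0.0379), and ptpn6, a phosphatase of leukocytes (-3.55 ± 0.98, adjusted p = 0.0147). In limma-voom without the deeper control these were -1.42 and -2.79, against -2.63 and -3.69 with all libraries. With E2 the transcription factor cebpd, which drives acute phase genes, fell (-3.88 ± 1.28, adjusted p = 0.0442), from 199 and 96 reads in the controls to 5 and 0. The 1 gene that rose, the G protein subunit gnai2b (authors' deposited table for E2, 5.20 ± 1.30, adjusted p = 0.00414), had 580 reads in the deeper E2 library, 4 in the shallower and 12 and 8 in the controls. As normalised reads gnai2b had 592 and 24.2 with E2 and 5.10 and 5.29 in the controls. Both E2 libraries thus lay above both controls, the shallower one on 4 reads. Its limma-voom change was 4.89 with all libraries and 2.32 without the deeper E2 library.

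In sum, markers of macrophages and neutrophils, cell types that make and respond to these proteins, were lower in the treated libraries, as the family's sum was. The 16 macrophage markers, all of them with a mean of at least 1, summed to 671 and 587 normalised reads in the controls, 165 and 133 with E2, and 125 and 159 with NP. In this sum all 4 treated libraries lay below both controls, and the sums of the controls were close, unlike those of the cytokine genes. Gene by gene the controls were less alike, the deeper control being the highest library for 14 of the 16 markers. Higher in the shallower control were cd74a, with 50.2 normalised reads in the deeper and 161 in the shallower, and csf1rb, with 1.28 and 7.93. Both treated libraries lay below both controls for 11 of the 16 markers with E2 and 13 with NP, as for 36.1% and 21.8% of all genes. With E2, cd74a had 80.6 and 72.5 normalised reads, between the controls. The deposited log2 fold change of csf1rb with NP was 0.11. In the authors' deposited tables, grn1 (-6.41 ± 1.40, adjusted p = 6.23e-04) and grn2 (-4.39 ± 1.32, adjusted p = 0.024) fell with E2, and grn1 (-3.30 ± 0.70), grn2 (-2.95 ± 0.78) and marco (-3.80 ± 1.1) with NP (adjusted p = 2.66e-04, 0.00848 and 0.0239). marco, a macrophage scavenger receptor, had 177 and 4 reads in the controls and shared the split between them.

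Neutrophil markers, 7 of 9 with a mean of at least 1 and csf3r at 0, summed to 78.6 and 79.3 normalised reads in the controls, 21.4 and 0 with E2, and 16.5 and 30.8 with NP. Their defining peroxidase gene mpx had 43 and 46 reads in the controls, 1 and 0 with E2 and 0 in both NP libraries, and fell with NP (-5.37 ± 1.25, adjusted p = 0.00129, authors' deposited table). Not every neutrophil gene was lower. The lysozyme gene lyz had 10 and 4 reads in the controls, 6 and 0 with E2, and 13 and 14 with NP, above both controls with NP (1.31 ± 1.05, adjusted p = 0.958, authors' deposited table), and npsn, a protease of neutrophil granules, had deposited log2 fold changes of 0.32 and -0.02 in the authors' tables. T and NK cell markers, 4 of 13 with a mean of at least 1, summed to 11.9 and 2.64 in the controls and 0 to 3.06 in the treated libraries, and cd247l was at 0. Of the 8 B cell markers cd79a, cd79b, pax5, ighz and swap70a were at 0, and the sums were 9.78 and 7.93 in the controls, 4.08 and 0 with E2, and 0 and 17.7 with NP. Endothelial markers summed to 31.0 and 43.0 in the controls, 24.5 and 18.1 with E2, and 35.9 and 37.0 with NP.

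Markers of some cell types outside the immune system were lower with E2 too. The 7 bile duct markers summed to 1021 and 994 normalised reads in the controls, 217 and 169 with E2, and 683 and 716 with NP. Both E2 libraries lay below both controls for 6 of the 7, as they did for 36.1% of all genes. Of the 12 hepatocyte markers, 11 had a negative deposited log2 fold change with E2 (median -1.71) and 5 with NP (median 0.59). Of all genes, 65.5% were negative with E2 and 53.3% with NP. In the authors' deposited table for E2 the fibrinogen genes fga (-3.60 ± 1.01, adjusted p = 0.0138) and fgb (-3.58 ± 1.01, adjusted p = 0.0138) and the protease inhibitor serpina1 (-3.68 ± 1.22, adjusted p = 0.0449) fell, and with NP 0 of the 12 fell. Of all genes with an adjusted p, 3.67% fell with E2 and 1.68% with NP. Erythrocyte markers summed to 54.0 and 41.6 in the controls, 15.3 and 60.4 with E2, and 183 and 516 with NP, and the authors' deposited table for NP had alas2 (2.79 ± 0.76, adjusted p = 0.0113) and hbaa1 (2.98 ± 0.76, adjusted p = 0.00496) higher. In sum, the stellate and fibroblast markers were not lower. They summed to 30.6 and 45.6 in the controls, 48.0 and 48.3 with E2, and 55.4 and 118 with NP. The E2 sums were 47 and 8 reads. Of the 48.0 in the deeper E2 library, 28.6 came from col1a2, which had 0 in the shallower. The marker tagln went the other way, with both E2 libraries below both controls and a deposited log2 fold change of -1.58. Lower values with E2 were seen in some lists of cells that are not immune and not in others. Few reads of the stellate and erythrocyte lists were in the shallower E2 library, 8 and 10. The part of these cell types in the family's values was not tested.

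Markers of neighbouring organs also differed between libraries. The 8 intestinal markers summed to 449 normalised reads in the shallower control and to 0.425 to 6.04 in the other 5 libraries, and 11 exocrine pancreas markers summed to 2.98 and 75.3 in the controls, 105 and 1093 with E2, and 5550 and 15851 with NP. Their part in the members' values was not tested.

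**Figure D5:**
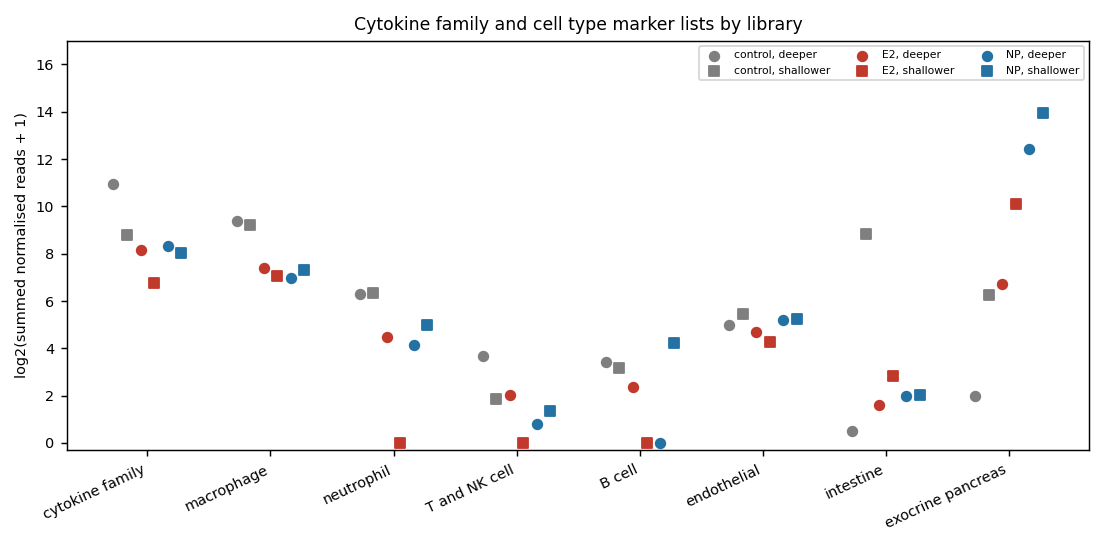
Summed normalised reads, as log2(sum + 1) on the vertical axis, of the cytokine family and of 7 lists of cell type markers in the 6 libraries; circles are the deeper and squares the shallower library of control (grey), E2 (red) and NP (blue). The macrophage sums of the controls, 671 and 587, lie together above those of the treated libraries, whereas the cytokine family sums of the controls, 1988 and 443, lie apart. Gene by gene, 14 of the 16 macrophage markers were highest in the deeper control.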

How the data were processed

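Livers were profiled by RNA sequencing in 6 libraries, 2 in each of 3 groups. Tools listed in the submitters' processing notes are DESeq2, HTSeq and TopHat2, on build GRCz10, without versions. The authors deposited, per the file headers, a table for each compound against control, which holds a signal per gene (mean normalised reads over the 4 libraries), a log2 fold change with its standard error (log2), a score (the fold change divided by its error) and p-values, adjusted in the deposited tables for 3241 genes with E2 (means from 12.6) and 6799 with NP (from 6.64). An adjusted p under 0.05 in the deposited tables was the main test, and "rose" and "fell" refer to it. The design had first expected counts per library.

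From the deposited means, whole reads per library were recovered: in a mean, each read of a library adds the same fixed amount, and both tables were solved together. Solutions were found for 3 of 3000 means altered as decoys, and 234 genes were not solved. The recovered genes hold 40.1% (E2) and 34.8% (NP) of the summed means. These reads were fitted with limma 3.58.1 (voom; R 4.3.3) over all 3 groups, for genes with at least 10 reads, with Benjamini-Hochberg adjustment, after tests on simulated data (Python 3.11.15). A bound written "at least" sets 3 reads over the treated group against the control reads, which are taken as exact. It covers counting error of the treated group only, and reads without molecular identifiers are not independent molecules. Where the controls hold few reads, the fold may be smaller than the bound.

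Members and lists were chosen with earlier results of these data known. Named genes were members past an adjusted or unadjusted p of 0.05, the 3 with the highest mean of each role, well known members whatever their values, and called genes of the signalling list; other genes named are said to be chosen after seeing values. Current names matched 160 of 170 members. Alternatives were other thresholds and filters, limma-voom, other size factors (TMM) and pseudocounts of 0.5, 1 and 5, and leaving out each library.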

Additional observations from a re-analysis of the deposited data

How the results depend on the processing

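Counts of members that passed the test depended on the tool. With E2, 2 members fell by the deposited adjusted p, and 1 did when a mean of at least 10 was required. The E2 means of cxcl18b and cxcl20, 71.2 and 49.8, exceed 10, so that filter by itself removes neither gene. There were 0 with Benjamini-Hochberg adjustment over all genes that have a p, and 0 in limma-voom. With NP, 3 fell by the deposited adjusted p and 0 in limma-voom, where 1 member passed without a filter on low counts and leaving out 1 library gave 0 to 4; the 4 (ccl19a.1, ccl34a.4, cxcl11.1 and cxcl18b) passed without the shallower control. The count stayed at 0 for E2 and for NP against E2 in limma-voom when each library was left out. The members' median log2 fold change with E2 was -2.46 for members whose mean was at least 10, against -1.38. The number of members whose mean normalised reads were lower than in the controls, an alternative chosen after seeing the data, was 63 with E2 and 64 with NP, and 42 in both without the deeper control. Also chosen after seeing the data, the lower limit of the ccl19b fold went from 5.33 to 3.03 with E2 and from 12.3 to 6.96 with NP without the deeper control.

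In limma-voom with all libraries, 12 of 58 members with E2 and 3 with NP had the opposite sign to the deposited fold change. Those the text names with a fold change were, with E2, tnfb -1.21, cxcr4b 0.16, il15 0.018, il34 0.038, il13ra1 0.34 and ccl34a.4 0.13. None of these had passed the test, and the cause was not tested. Leaving out 1 library changed the sign of further fold changes in limma-voom. The lowest and highest values with E2 were, for tnfrsf1a -2.69 to 0.16, tnfb -2.39 to 2.53, tnfsf10 -1.34 to 1.22, ccl19a.1 -5.71 to 0.95, cxcl12a -1.86 to 0.80, cxcr3.2 -1.74 to 0.83, cxcr4b -1.63 to 0.97, il11a -2.10 to 0.48, il15 -0.24 to 0.74, il34 -1.46 to 1.36, il13ra1 -1.57 to 1.49, il17rel -3.48 to 0.11, ccl19a.2 -2.60 to 0.36, marco -3.21 to 1.46, ccl25b -3.12 to 0.34, ccl34a.4 -4.71 to 4.77 and ccl39.2 -5.67 to 1.29. With NP they were, for TNFRSF14 (4 of 8) -0.93 to 1.89, tnfb -2.52 to 0.25, tnfsf10 -1.86 to 0.058, tnfaip8l1 -1.15 to 0.25, cxcl12a -1.43 to 0.86, cxcr4b -1.18 to 0.61, il34 -3.37 to 0.043, il12rb2l -0.94 to 0.58, gnai2b -0.41 to 1.13, IL12B (2 of 4) -0.94 to 0.61, ccl34a.4 -7.33 to 2.15 and ccl39.2 -4.80 to 1.63. Further values of the opposite sign were, with E2, tnfb -2.32 without the shallower control, il15 0.15 without the deeper control, and cxcl12a 0.056, cxcr4b 0.63 and ccl34a.4 0.27 without the shallower E2 library; with NP they were TNFRSF14 (4 of 8) -0.18, cxcl12a 0.82, IL12B (2 of 4) 0.046 and ccl39.2 0.60. The other values from leaving out a library kept their sign.

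No paired analysis was possible because the labels give the groups no shared replicate numbers, and the recovered reads cannot be tied to a sample. Of the 118 members with reads, 45 had a mean below 1. With 2 libraries a group and 1 tank each, effects of fish, tank and treatment cannot be told apart.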
